A study of Mus musculus with 6 samples.

Results

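This report covers 10 genes of the endoplasmic reticulum (ER) and of its stress signalling in the mouse aortic valve, compared between postnatal day 2 (PND2) and 4 months of age. They are the folding factors Hspa5, Hsp90b1, Pdia3, Calr and Canx and the transcription factors Xbp1, Atf4, Ddit3, Creb3l1 and Creb3l2. They were taken by gene name from a table of 46983 genes, each name matched 1 row, and all 10 were among the 25903 genes that passed the filter on low values. The libraries were made from wild type C57BL/6J mice, 3 from aortic valves of PND2 pups and 3 from valves of mice aged 4 months. Each was prepared from the pooled valves of 5 to 6 mice. No genotype or treatment differed between the groups. The tissue was whole valve, so RNA of all its cell types was measured together, with that of any adjoining tissue taken along.

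Secreted and membrane proteins, the collagens and proteoglycans of a valve leaflet among them, are translated into the ER and fold there with the help of chaperones. Hspa5 (BiP) is the ER member of the HSP70 family and also holds the stress sensors inactive, and Hsp90b1 (GRP94) is the ER member of the HSP90 family. Calr (calreticulin) and Canx (calnexin) are lectins that retain newly made glycoproteins until they fold, and Pdia3 (ERp57) is the disulphide isomerase that works with both lectins. When unfolded protein builds up, the unfolded protein response (UPR) starts: Ern1 (IRE1) splices Xbp1 mRNA, Eif2ak3 (PERK) raises translation of Atf4, and Atf4 in turn activates Ddit3 (CHOP). Creb3l1 (OASIS) and Creb3l2 (BBF2H7) are membrane-bound relatives of Atf6 that are cleaved on the way to the nucleus, and in bone and cartilage they are known for driving genes of the secretory machinery and collagen. For Xbp1, Atf4, Creb3l1 and Creb3l2 much of this control lies in splicing, translation or cleavage, which gene-level RPKM does not measure.

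The ER stress response element (ERSE), the sequence through which Atf6 and Xbp1 are known to act on chaperone genes, was found in 4 of the 9 promoters that could be searched, all of folding factors. It was searched as CCAAT, then 9 bases of any kind, then CCACG, on both strands, in the window from 250 bases before to 50 bases after each RefSeq transcript start (GRCm38.p6). Each match thus also holds at least 1 CCAAT and at least 1 CCACG. Of the 10 genes, 9 had a window in the RefSeq table. The element was in the windows of Hspa5, Hsp90b1, Calr and Canx, with 1 copy each in Hspa5, Calr and Canx and 2 in Hsp90b1. Among all 32851 windows, 39 (0.119%) held the element and 1, that of Hsp90b1, held 2 copies. The 250 bases before the start are shown 5′ to 3′ on the strand of the gene for these 4 genes, with the element in capitals, and for Pdia3, the remaining folding factor, whose window held 2 copies of CCAAT and none of CCACG.
Hspa5, chr2:34771840-34772089 (plus strand): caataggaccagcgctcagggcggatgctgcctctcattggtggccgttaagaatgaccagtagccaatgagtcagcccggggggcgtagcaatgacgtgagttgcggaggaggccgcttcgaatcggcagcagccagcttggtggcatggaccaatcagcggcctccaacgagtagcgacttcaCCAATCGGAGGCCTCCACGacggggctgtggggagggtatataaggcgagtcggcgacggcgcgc
Hsp90b1, chr10:86705445-86705694 (minus strand): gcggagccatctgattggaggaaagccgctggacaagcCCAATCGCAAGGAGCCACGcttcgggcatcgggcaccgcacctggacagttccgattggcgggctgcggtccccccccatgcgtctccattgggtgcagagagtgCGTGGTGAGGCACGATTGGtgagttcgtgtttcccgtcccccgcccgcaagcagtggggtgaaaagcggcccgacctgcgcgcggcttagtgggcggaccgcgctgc
Calr, chr8:84846932-84847181 (minus strand): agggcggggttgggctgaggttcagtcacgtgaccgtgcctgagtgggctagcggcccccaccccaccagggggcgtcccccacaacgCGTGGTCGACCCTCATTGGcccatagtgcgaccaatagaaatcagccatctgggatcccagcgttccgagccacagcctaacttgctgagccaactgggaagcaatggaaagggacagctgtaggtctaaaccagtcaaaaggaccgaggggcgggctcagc
Canx, chr11:50325674-50325923 (minus strand): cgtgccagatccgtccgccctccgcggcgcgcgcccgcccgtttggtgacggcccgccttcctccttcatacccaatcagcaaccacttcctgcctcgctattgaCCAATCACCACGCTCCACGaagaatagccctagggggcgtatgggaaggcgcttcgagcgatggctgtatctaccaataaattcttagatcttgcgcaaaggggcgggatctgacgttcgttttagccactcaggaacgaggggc
Pdia3, chr2:121413652-121413901 (plus strand): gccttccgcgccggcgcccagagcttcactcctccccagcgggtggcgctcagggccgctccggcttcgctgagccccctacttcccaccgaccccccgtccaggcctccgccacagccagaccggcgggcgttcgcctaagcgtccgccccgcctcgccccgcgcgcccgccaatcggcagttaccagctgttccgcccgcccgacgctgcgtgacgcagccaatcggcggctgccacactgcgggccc
The 5 elements, each read in the direction that starts with CCAAT, shared the outer letters by construction and differed in the 9 bases between.
Hspa5, 65 to 47 bases before the start: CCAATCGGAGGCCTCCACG
Hsp90b1, 212 to 194 bases before the start: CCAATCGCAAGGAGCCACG
Hsp90b1, 107 to 89 bases before the start, antisense: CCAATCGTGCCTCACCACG
Calr, 162 to 144 bases before the start, antisense: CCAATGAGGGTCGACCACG
Canx, 145 to 127 bases before the start: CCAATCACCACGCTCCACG
The Hspa5 element lay closest to the start. The windows of Xbp1, Atf4, Ddit3 and Creb3l2 did not hold these letters. The Xbp1 window (chr11:5520391-5520690) belonged to the start of a long first exon at 5520659-5521200. A shorter exon with the same end, from 5521005, had the higher level. Its means were 63.5 against 25.1 RPKM at PND2 and 55.2 against 21.7 RPKM at 4 months. The bases directly before 5521005 were not searched, so absence of the element from Xbp1 is not shown. The cyclic AMP response core TGACGT, on either strand, occurred once each in the windows of Hspa5, Canx and Creb3l2 and in 7.51% of all windows. The amino acid response sequence (TGATG, any base, AAT), which Atf4 with a partner is known to bind, was in none of the 9 windows and in 0.965% of all. Bases further than 250 before the start were not searched, so its absence from a gene such as Ddit3 is not shown. A match is a run of letters and was not tested as a binding site.

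The 6 libraries had totals of 23810507 to 38994657, with 5.44 to 9.60% of their gene reads from mitochondrial genes. Values are RPKM, the reads on a gene divided by its exonic length and by the library's total, and a difference is called where limma on log2(RPKM + 0.1) gave a Benjamini-Hochberg adjusted p under 0.05 over all genes tested. By this rule 14.7% of all genes were called higher at 4 months and 21.1% lower, and the median over all genes was -0.14 on the log2 scale. Scaling the libraries to equal medians moved that median to -0.02, so values near -0.14 lie close to the middle of all genes. It also turned the balance of all calls, to 17.7% higher and 16.1% lower, so an excess of lower calls depends on the scaling. Of the 10 genes 1 was called higher, Ddit3, and 1 lower, Creb3l2, and their median log2 fold change was 0.01. None was called with a fold change over 2, against 4452 of all genes tested. In fits on median-scaled or quantile-normalized values Creb3l1 was called as well, which made 2 higher and 1 lower. Whether the libraries of the ages overlapped is a separate description: over all genes, every library of 4 months was above every PND2 library in 20.0% and below every one in 29.9%. Among the 10 genes this was so for Ddit3, which was higher, and for Creb3l2, which was lower.

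**Figure D1:**
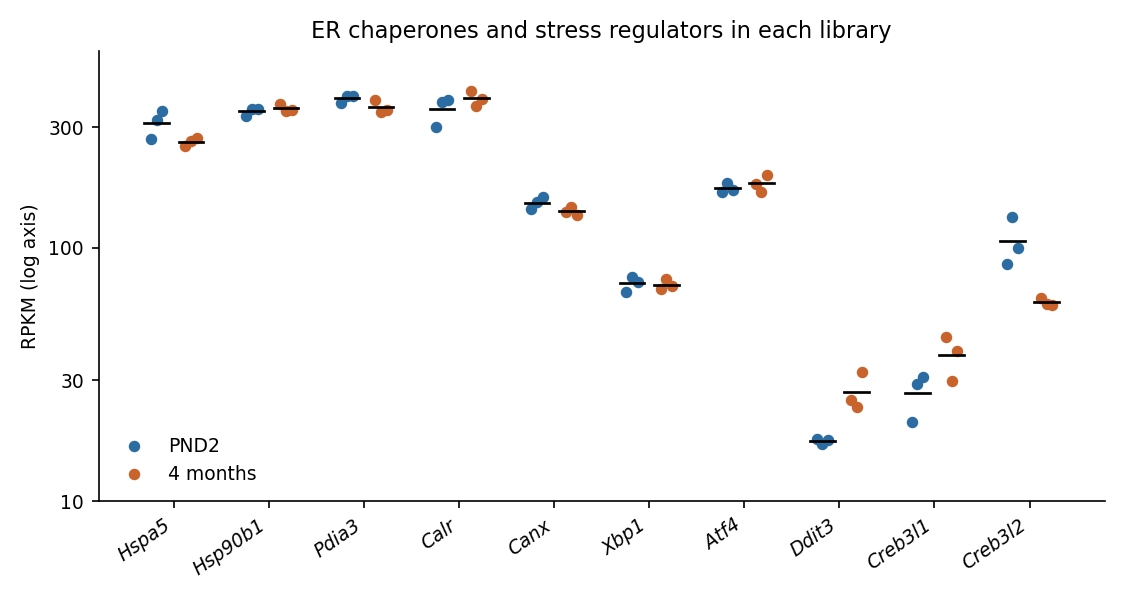
RPKM (log axis) of the 10 genes in each of the 3 PND2 libraries (blue) and the 3 libraries of 4 months (orange), with a bar at each mean. The folding factors lie between 135 and 418 RPKM at both ages, and only for Ddit3 and Creb3l2 do the ages not overlap.

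The 5 folding factors were among the abundant mRNAs of the valve libraries at both ages. Pdia3 averaged 389 RPKM at PND2, above 98.1% of the genes tested, and Canx, the lowest of the 5, averaged 151 RPKM, above 95.4%. At PND2 the order by mean level per length was Pdia3, Calr, Hsp90b1 and Hspa5, and each neighbouring pair in it overlapped across libraries. Atf4, Canx, Creb3l2, Xbp1, Creb3l1 and Ddit3 followed, each with all its PND2 libraries above those of the next. At 4 months Calr, Pdia3 and Hsp90b1 overlapped at the top, and Hspa5 now stood below all libraries of Hsp90b1. Creb3l2 and Xbp1 changed places, with Creb3l2 seventh and Xbp1 eighth at PND2 and the reverse at 4 months, and Creb3l1 and Ddit3 overlapped at the bottom.

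Hspa5 (chr2:34771970-34777547 in mm10, plus strand) had 1 PND2 library apart from the others. It measured 268, 319 and 347 RPKM in PND2 replicates 1 to 3 and 252, 265 and 271 RPKM at 4 months. PND2 replicate 1 fell within the range of the 4-month libraries and the other PND2 libraries lay above it. The means were 311 ± 39.9 and 262 ± 9.95 (SD, n = 3 libraries each), with a log2 fold change of -0.24 ± 0.12 (SE, 95% interval -0.52 to 0.04, limma adjusted p = 0.161). Without PND2 replicate 1 the log2 fold change was -0.34 and the gene was called lower (limma adjusted p = 0.0447). Without PND2 replicate 3 it was -0.16 (limma adjusted p = 0.430), so the value depends on single PND2 libraries.

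Hsp90b1 (chr10:86690209-86705509, minus strand) had the closest means of the 5 folding factors. It measured 330, 355 and 353 RPKM at PND2 and 371, 347 and 350 RPKM at 4 months. The ages overlapped, with means of 346 ± 13.8 and 356 ± 13.3 and a log2 fold change of 0.04 (95% interval -0.18 to 0.26, limma adjusted p = 0.774). The interval reached from 0.884 to 1.195 times the PND2 level, so a larger change in either direction lies outside it. Hsp90b1 shares exonic bases with 3 other annotated genes, Gm15344 and Gm25745 on the same strand (84 and 133 bases) and 1810014B01Rik on the opposite one (415 bases), and reads there may count for more than 1 gene.

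The lectin cycle genes also overlapped between the ages. Calr (chr8:84841850-84846934, minus strand) measured 301, 376 and 384 RPKM at PND2 and 418, 363 and 388 RPKM at 4 months (log2 fold change 0.15, 95% interval -0.16 to 0.45, limma adjusted p = 0.419). As with Hspa5, PND2 replicate 1 stood low and the other PND2 libraries were inside the 4-month range, and without it the Calr log2 fold change was 0.03. Canx (chr11:50293961-50325673, minus strand) measured 142, 152 and 159 RPKM at PND2 and 139, 146 and 135 RPKM at 4 months (log2 fold change -0.11, 95% interval -0.31 to 0.09, limma adjusted p = 0.371). Pdia3 (chr2:121413775-121438687, plus strand) measured 375, 397 and 396 RPKM at PND2 and 385, 343 and 350 RPKM at 4 months (log2 fold change -0.12, 95% interval -0.35 to 0.11, limma adjusted p = 0.393). A single 4-month library, replicate 1, kept the Pdia3 groups from separating. For Canx and Pdia3 the sign turned with median scaling, to 0.01 and 0.0048, so no direction is stated for either. Pdia3 shares 18 exonic bases with Catsper2 on the opposite strand.

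Added together, the 5 folding factors came to 1416, 1599 and 1639 RPKM at PND2 and 1564, 1463 and 1494 RPKM at 4 months. The mean sum at 4 months was 0.971 times that at PND2, and the ages overlapped. These are levels per unit of total library RNA: in whole tissue, fewer cells of a type and less RNA per cell cannot be told apart.

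Xbp1 and Atf4, the transcription factors of the IRE1 and PERK branches, did not pass the test in total mRNA. Xbp1 (chr11:5520659-5525893, plus strand) measured 66.9, 77.0 and 73.6 RPKM at PND2 and 68.8, 75.4 and 70.6 RPKM at 4 months (log2 fold change -0.02, 95% interval -0.23 to 0.20, limma adjusted p = 0.905). Its sign turned under 5 of the 18 alternatives, and the spliced form cannot be read from exon totals. Atf4 (chr15:80255184-80257540, plus strand) measured 166, 181 and 170 RPKM at PND2 and 178, 167 and 194 RPKM at 4 months (log2 fold change 0.06, 95% interval -0.16 to 0.28, limma adjusted p = 0.672). For both genes the libraries of each age lay within or across those of the other.

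Ddit3, the pro-apoptotic factor downstream of Atf4 (chr10:127290774-127296288, plus strand), rose. It measured 17.6, 16.9 and 17.5 RPKM at PND2, from 876 to 1176 reads, and 25.1, 23.5 and 32.3 RPKM at 4 months, from 958 to 1608 reads. The PND2 libraries were within 1 RPKM of each other and every 4-month library was above them, replicate 3 highest. The mean went from 17.3 ± 0.392 to 27.0 ± 4.66 RPKM, 1.56 times, with a log2 fold change of 0.62 ± 0.13 (SE, 95% interval 0.31 to 0.94, limma adjusted p = 0.0106). Its log2 fold change was larger in size than that of 61.6% of the genes tested. Without 4-month replicate 3 it was 0.49 (limma adjusted p = 0.0251). The call was made in 17 of 18 alternatives. It was lost in the per-gene unequal-variance test, the kind the study used, run here with this report's filter (adjusted p = 0.127). That test estimates the spread from 3 libraries against 3 for each gene alone. A list of 10 immediate early and cytosolic heat shock genes, which respond to tissue handling among other things, was also higher at 4 months. Its summed level was 179, 198 and 209 RPKM at PND2 and 1915, 1749 and 3849 RPKM at 4 months. Of its 10 genes, 9 were called higher. Replicate 3 of 4 months was highest in the sum, as in Ddit3, and in Hspa1a, Hspa1b, Hsph1, Dnajb1, Jun and Fosb. Fos (97.2, 32.3 and 39.6 RPKM at 4 months), Junb, Egr1 and Ier2 were highest in replicate 1 of that age instead. The part of handling in the Ddit3 difference was not tested.

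Creb3l2 (chr6:37327255-37442146, minus strand) fell, and it was the gene of the 10 with the largest difference in size. It measured 86.3, 132 and 100 RPKM at PND2 and 63.7, 59.8 and 59.6 RPKM at 4 months. The PND2 libraries were spread widely, with replicate 2 highest, the 4-month libraries were close together, and the ages did not overlap. The mean went from 106 ± 23.4 to 61.0 ± 2.28 RPKM, 0.575 times, with a log2 fold change of -0.77 ± 0.15 (SE, 95% interval -1.14 to -0.41, limma adjusted p = 0.00780). Leaving out 1 library at a time gave -0.91 to -0.61 with every call kept, and the per-gene unequal-variance test gave an adjusted p of 0.131. Markers of cycling cells were lower at 4 months, where a list of 8 cell cycle genes summed to 9.43 to 9.76 RPKM against 50.7 to 95.6 RPKM at PND2, with 8 of 8 called lower. The part of this in the Creb3l2 difference was not tested.

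Creb3l1 (chr2:91982328-92024502, minus strand), the other OASIS family member, had values on the opposite side. It measured 20.6, 29.1 and 30.8 RPKM at PND2 and 44.7, 29.8 and 39.0 RPKM at 4 months. PND2 replicate 1 was far below the rest and 4-month replicate 2 lay between the upper PND2 libraries, so the ages overlapped. The means were 26.8 ± 5.47 and 37.8 ± 7.49 RPKM, 1.41 times, with a log2 fold change of 0.50 ± 0.20 (SE, 95% interval 0.03 to 0.97). This did not pass the adjusted threshold (limma adjusted p = 0.0944). It passed with median scaling (0.62, limma adjusted p = 0.0330), with quantile normalization (0.56, limma adjusted p = 0.0447) and without 4-month replicate 2 (0.66, limma adjusted p = 0.0467), but not in the other fits. Without PND2 replicate 1 the log2 fold change was 0.32 (limma adjusted p = 0.210) and without 4-month replicate 1 it was 0.37 (limma adjusted p = 0.234). The value thus depends on scaling and on single libraries of both ages. In 4-month replicate 2 the 6 adipocyte markers summed to 1391 RPKM, against 322 and 339 RPKM in the other libraries of that age, and the part of this in the Creb3l1 value was not tested.

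**Figure D2:**
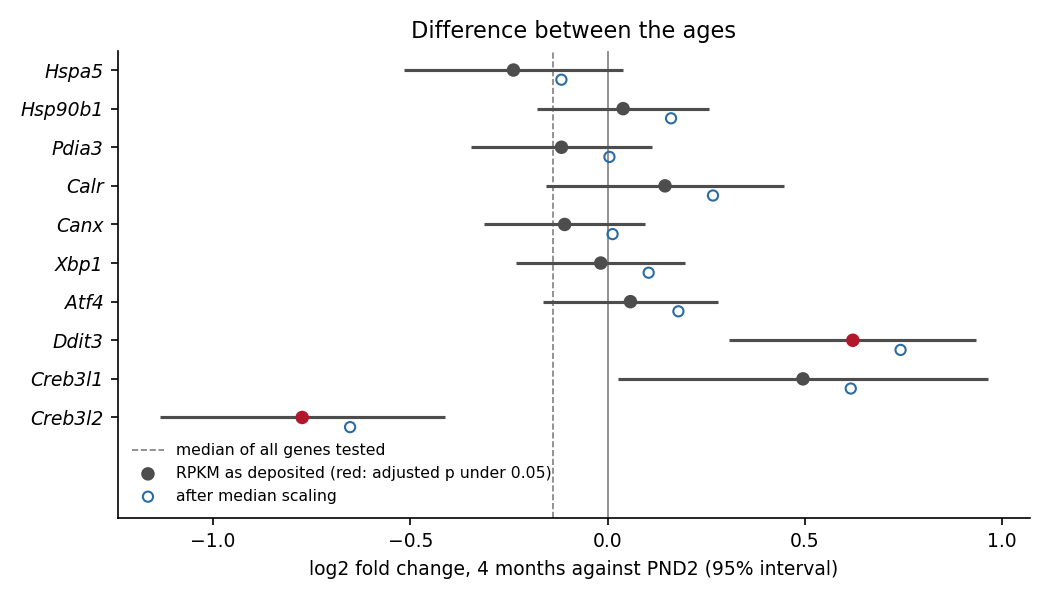
Log2 fold change at 4 months against PND2 for the 10 genes with 95% intervals from limma (filled points, red where the adjusted p is under 0.05), the values after median scaling (open points) and the median of all genes tested (dashed line, -0.14). Ddit3 at 0.62 and Creb3l2 at -0.77 stand away from 0 on either scale, and the 7 genes from Hspa5 to Atf4 lie between -0.24 and 0.15.

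Replicate 1 of PND2 was the lowest of its age for 9 of the 10 genes, all but Ddit3, while it was the lowest for 46.6% of the genes tested. It was also the PND2 library with the largest mitochondrial share and with the lowest coverage of the 5′ exons relative to the 3′ exons (median log2 ratio over 9038 genes of -0.85, against -0.67 and -0.68). Without it, 1 gene was called higher and 2 lower, with Hspa5 joining Creb3l2.

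Ratios of genes with paired roles, taken within a library, do not depend on the scaling between libraries. The 5 pairs were taken by role with the gene levels already known, and in each the ages did not overlap. Of all 45 pairs of the 10 genes, the ages did not overlap in 29, and of the 28 pairs without Ddit3 and Creb3l2 in 13, so separation alone does not set the 5 apart. With 3 libraries against 3 the smallest p an exact 2-sided permutation test can give is 0.1, and each of the 5 gave 0.1 (also 0.1 after adjustment over the 5), so none can pass a threshold of 0.05. Creb3l2 to Creb3l1 was 4.19, 4.53 and 3.25 at PND2 and 1.43, 2.01 and 1.53 at 4 months. Every PND2 library thus held over 3 times as much Creb3l2 as Creb3l1 mRNA per length, and the mean ratio was 3.99 ± 0.667 at PND2 and 1.65 ± 0.310 at 4 months. This was the widest of the 5 differences, -1.27 on the log2 scale.

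Ddit3 to Atf4, the downstream factor over its activator, was 0.106, 0.0931 and 0.103 at PND2 and 0.141, 0.141 and 0.167 at 4 months, a log2 difference of 0.57. Atf4 mRNA was thus far above that of Ddit3 at both ages. Hspa5 to Hsp90b1 was 0.812, 0.898 and 0.982 at PND2 and 0.678, 0.763 and 0.775 at 4 months (log2 difference -0.28). Hspa5 was below Hsp90b1 in all 6 libraries, further so at 4 months. Calr to Canx was 2.11, 2.47 and 2.42 at PND2 and 3.01, 2.49 and 2.86 at 4 months (log2 difference 0.25), and the nearest libraries of the ages were almost equal. Calr to Pdia3 was 0.802, 0.946 and 0.969 at PND2 and 1.09, 1.06 and 1.11 at 4 months (log2 difference 0.26), below 1 in all PND2 libraries and above 1 in all of 4 months. Neither Calr nor Hspa5 was called alone.

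**Figure D3:**
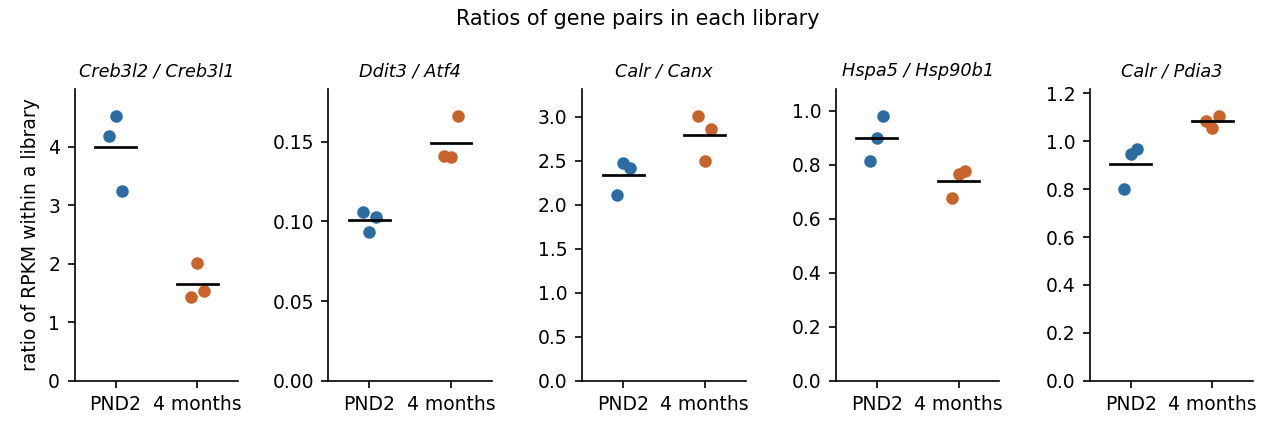
Ratio of RPKM within each library for 5 pairs of the genes, at PND2 (blue) and 4 months (orange), with a bar at each mean and axes starting at 0. The ages are apart in each panel, most widely for Creb3l2 over Creb3l1 with means of 3.99 and 1.65.

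The exon table gave the same genes at finer grain, for exons with at least 1 RPKM in 3 libraries. Among all 299098 such exons, 15.5% were higher at 4 months without overlap of the ages and 27.1% lower. Annotated exons of a gene can overlap or repeat each other, so they are not independent, and the counts describe how evenly a difference ran along a gene. All 8 exons of Ddit3 were higher without overlap, with log2 ratios of mean RPKM from 0.48 to 1.51. The largest belonged to a 48-base exon at chr10:127293712-127293759, at 13.4, 16.4 and 29.2 RPKM at PND2 and 55.8, 47.2 and 65.5 RPKM at 4 months. The last 2 exons, which share their start at 127295723, had ratios of 0.48 and 0.52, so the difference was smaller toward the 3′ end. The log2 coverage of the 5′ against the 3′ exons of Ddit3 was -1.48, -1.01 and -0.87 at PND2 and -0.56, -0.51 and -0.72 at 4 months. Mars, on the opposite strand, shares 68 exonic bases with Ddit3 and had means of 34.0 RPKM at PND2 and 23.0 RPKM at 4 months.

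Of the 16 exons of Creb3l2, 14 were lower without overlap and all 16 ratios were below 0, from -0.98 to -0.64. The 2 exceptions were the first exon, at chr6:37441699-37442146, and an exon of 130 bases with at most 6.05 RPKM in any library. The fall of Creb3l2 thus ran along the whole transcript. All 12 exons of Creb3l1 had ratios above 0, from 0.29 to 0.69, but only 2 did not overlap. Hspa5 had 21 of 21 exons below 0, with 3 not overlapping, and Calr 19 of 19 above 0, with 1 not overlapping. Pdia3 had 9 of 23 exons lower without overlap and Canx 2 of 26, whereas Hsp90b1 had 4 of 36 higher. None of the 11 exons of Xbp1 or the 3 of Atf4 separated the ages.

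**Figure D4:**
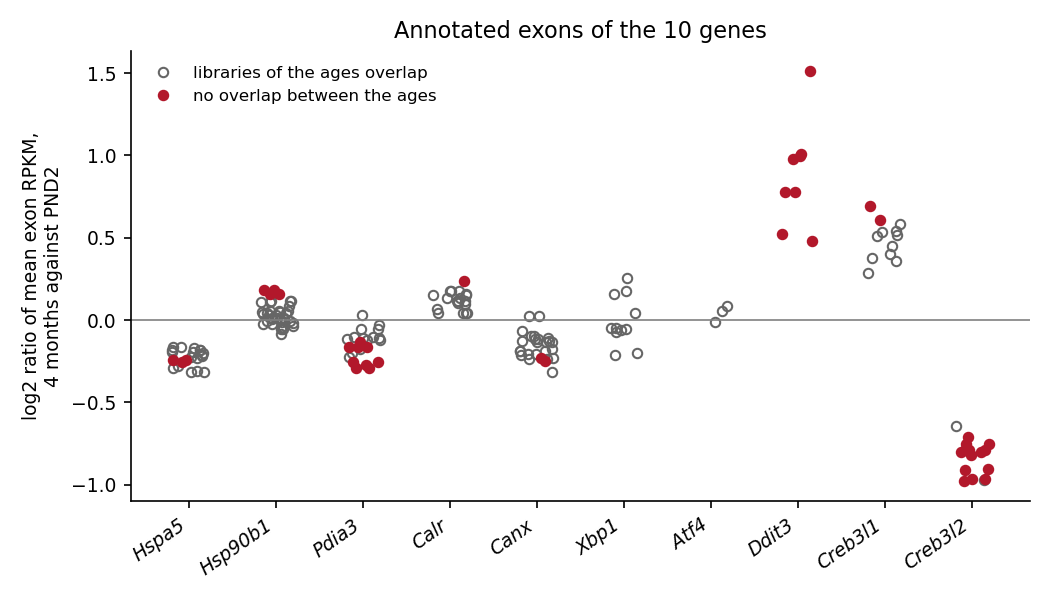
Log2 ratio of mean exon RPKM at 4 months against PND2 for each annotated exon of the 10 genes, filled red where the libraries of the ages do not overlap. The Ddit3 exons lie between 0.48 and 1.51 and those of Creb3l2 between -0.98 and -0.64, and those of Hspa5, all below 0, reach no lower than -0.32.

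Among 28 other ER folding genes, 5 were called higher and 11 lower (median log2 fold change -0.37), beside 14.7% and 21.1% of all genes. In the per-gene unequal-variance test it was 3 higher and 2 lower, beside 5.66% and 7.5% of all genes in that test. The largest falls were of the disulphide isomerases Pdia5 (42.0 ± 5.86 to 11.8 ± 2.01 RPKM, log2 fold change -1.83, limma adjusted p = 2.71e-04) and Txndc5 (260 to 114 RPKM, -1.16, limma adjusted p = 0.00361) and of the chaperone Erp29 (-0.83, limma adjusted p = 8.59e-04). Among the rises were Sil1, the nucleotide exchange factor of Hspa5 (26.0 to 46.2 RPKM, 0.84, limma adjusted p = 0.00393), and the Hspa5 co-chaperone Dnajb9 (0.64, limma adjusted p = 0.0165). The oxidase Ero1lb had the largest rise, 1.17, from 1.89 to 4.38 RPKM (limma adjusted p = 0.00196). Of 32 translocon and ER to Golgi transport genes, 12 were called lower and 0 higher by limma (median -0.26, beside the same all-gene shares). At an unadjusted p under 0.05 there were 19 lower and 0 higher, with no all-gene share given for that threshold. By voom on recovered reads 13 were lower and 0 higher, beside 21.6% and 15.8% of all genes. The per-gene unequal-variance test left 2 of the 32 lower, beside 7.5% of all genes, so the excess of lower calls depends on the test. The largest falls there were of Ssr2, a subunit of the translocon-associated complex (188 to 85.6 RPKM, -1.13, limma adjusted p = 4.47e-04), the retrieval receptor Kdelr3 (-1.03, limma adjusted p = 0.00295) and the cargo receptor Lman1 (-0.71, limma adjusted p = 0.00658). Both medians were below that of all genes, -0.14, while the 5 folding factors among the 10 genes lay between -0.24 and 0.15.

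Downstream of Atf4, 20 integrated stress response genes split, with 9 called higher and 5 lower (median 0.14), beside 14.7% and 21.1% of all genes. The lower calls were thus about as frequent as over all genes. The transcription factor Atf3 rose from 15.8, 9.49 and 6.87 RPKM at PND2 to 133, 125 and 213 RPKM at 4 months (log2 fold change 3.90, limma adjusted p = 2.30e-04). Atf3 is itself an immediate early gene, and the part of tissue handling in its difference was not tested. Atf5 (1.92, limma adjusted p = 1.98e-04) and Cebpb, the dimer partner of Ddit3 (1.48, limma adjusted p = 0.00547), also rose. The amino acid synthesis enzymes Psat1 (-1.67, limma adjusted p = 0.00165), Pycr1 (-1.27, limma adjusted p = 0.0130) and Aldh18a1 (-1.14, limma adjusted p = 0.0127) fell. The genes of the list that rose were thus in part transcription factors, as Ddit3 is, and the 3 largest falls were of enzymes.

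The 12 UPR sensors and transducers had 2 called higher and 2 lower (median -0.04), close to the all-gene shares of 14.7% and 21.1%, so these counts are no result about the list. The list also holds Eif2ak1, Eif2ak2 and Eif2ak4, eIF2 kinases that are not sensors of the ER. Map3k5 (ASK1, 0.76, limma adjusted p = 0.00629) and Traf2 (0.57, limma adjusted p = 0.0206), which act together downstream of IRE1, rose. The eIF2 kinase Eif2ak4 (GCN2, -0.66, limma adjusted p = 0.0141) and its substrate Eif2s1 (-0.66, limma adjusted p = 0.00228) fell. Among 18 genes of ER-associated degradation, 2 were called higher and 3 lower (median -0.07), again close to the all-gene shares, with Edem1 (0.54, limma adjusted p = 0.0109) and Herpud1 (0.42, limma adjusted p = 0.0214) higher and Edem3 (-0.56, limma adjusted p = 0.00425), Erlec1 (-0.50, limma adjusted p = 0.00713) and Vimp (-0.31, limma adjusted p = 0.0418) lower. Median scaling turned that split to 3 higher and 2 lower, and TPM scaling left 1 higher and 2 lower among the sensors.

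Of the CREB3 family beyond Creb3l1 and Creb3l2, 3 genes were measured and limma called 0 higher and 0 lower (0 and 2 at an unadjusted p under 0.05, and 0 and 0 by voom). Creb3 measured 52.0, 56.0 and 51.2 RPKM at PND2 and 47.5, 37.5 and 45.5 RPKM at 4 months (log2 fold change -0.29, 95% interval -0.56 to -0.03, limma adjusted p = 0.0815). Creb3l3 and Creb3l4 were low, at no more than 0.750 and 2.28 RPKM in any library. Creb3l2 was therefore the family member with the highest level at each age.

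**Figure D5:**
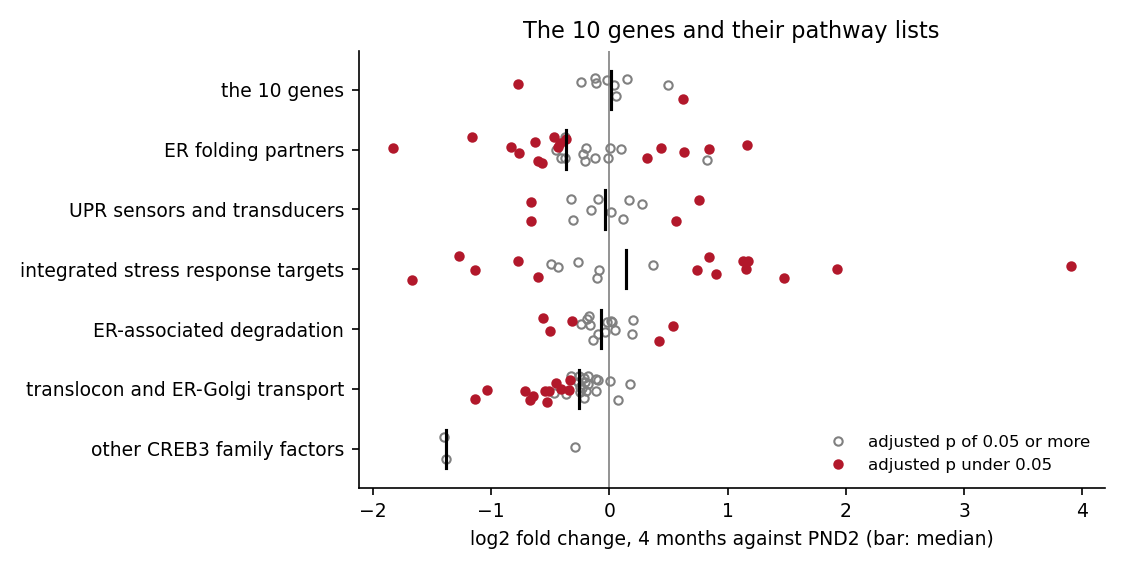
Log2 fold change at 4 months against PND2 for the 10 genes and for the genes of 6 pathway lists, filled red where the adjusted p is under 0.05, with a bar at each median. Folding partners (median -0.37) and transport genes (-0.26) lie mainly below 0, and Atf3 is the point at 3.90.

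The 37 genes with the promoter element were called about as often as all genes. Of the 22 tested, 3 were called higher and 6 lower (median log2 fold change -0.11), beside 14.7% and 21.1% of all genes, and without the 4 chaperones 18 remained with 3 higher, 6 lower and a median of -0.16. The lower calls were of Zfp57 (-3.15), Pan2 (-0.83), Pdia6 and the near-identical paralogues Xlr3a, Xlr3b and Xlr3c (-2.06, -2.20 and -2.50), whose reads may not be separable. The 37 included 4 of the 23 folding partners that had a window, namely Dnajc3 (0.43, limma adjusted p = 0.00647) and Ero1lb, which rose, Pdia6 (-0.57, limma adjusted p = 0.00988), which fell, and Creld2 (-0.20, limma adjusted p = 0.480). Of the degradation genes with a window, 2 of 14 held the element, Derl3 (-0.02, limma adjusted p = 0.976) and Syvn1 (0.20, limma adjusted p = 0.382). No window of the sensor, stress response, transport or CREB3 lists held it.

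Markers of several cell types in or near the valve shifted between the ages. The called counts stand beside 14.7% of all genes higher and 21.1% lower. Valve interstitial cell markers summed to 5012 to 5535 RPKM at PND2 and 6483 to 8337 RPKM at 4 months (1 of 7 called higher, near the all-gene share, and 4 lower). The sum rose through Dcn (mean 1054 to 3961 RPKM) and Vim (1360 to 1989 RPKM), while Postn, Col1a1, Col1a2 and Tbx20 were called lower. Endothelial markers went from 399 to 544 RPKM to 225 to 236 RPKM (7 of 7 lower) and macrophage markers from 195 to 208 RPKM to 704 to 759 RPKM (4 of 6 higher). Cardiomyocyte markers summed to 10905 to 13211 RPKM at PND2 and 4320 to 7566 RPKM at 4 months (4 of 8 lower). In every PND2 library the cardiomyocyte sum was above the interstitial sum, and also in 4-month replicate 2 (7566 against 6483 RPKM). The levels at either age are thus not those of leaflet cells alone. Adipocyte markers were at 63.8 to 147 RPKM and 322 to 1391 RPKM (5 of 6 higher), with Cidec, Lep and Cfd at no more than 3 reads in every PND2 library. Erythroid markers were at 1865 to 2598 RPKM and 750 to 2158 RPKM, with 0 of 5 called by limma in either direction (0 higher and 1 lower at an unadjusted p under 0.05). Plasma and B cells, which are known for very high levels of ER chaperones, had summed markers of only 1.61 to 3.70 RPKM and 1.55 to 7.25 RPKM. Of these, 1 of 6 tested was called higher, near the all-gene share, so this count is no result about the list. The part of these shifts in the values of the 10 genes was not tested.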

How the data were processed

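RNA-seq libraries of aortic valves, 3 from PND2 and 3 from 4 months, were grouped by their sample labels. According to the study's methods and the submitters' processing notes, the authors trimmed the paired reads and aligned them with TopHat2 2.1.0 to mm10. Their counts per Ensembl gene or exon, made with easyRNASeq, were deposited as RPKM for 46983 genes and 448141 exons. Total RNA went into a stranded kit, and whether counting used strand is not stated, so genes that overlap are uncertain. Undoing the scaling of the gene values returned integer read numbers in 100% of cases (tolerance 0.01 reads). Reads summed over genes came to 2.31 to 2.36 times the totals, but the sources do not say if a total is of single reads or of pairs, so this ratio does not show whether reads were counted at more than 1 gene.

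The 25903 genes that reached 0.1 RPKM in at least 3 libraries were compared with limma 3.58.1 in R 4.3.3 (eBayes with trend, 2-sided) on log2(RPKM + 0.1), with p-values adjusted by Benjamini-Hochberg. For genes of low RPKM the added 0.1 shrinks the fold change. Ratios were tested by exact permutation in scipy 1.17.1. Tables and figures used Python 3.11.15, numpy 2.4.6, pandas 2.3.3, matplotlib 3.10.9 and the R package data.table (1.17.8). The limma step was tested on simulated data. Promoter windows were matched by symbol or Entrez ID to RefSeq entries (GRCm38.p6).

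The 10 genes, the pathway and marker lists (6 pathway lists, and lists for interstitial, endothelial, plasma and B, cardiomyocyte, adipocyte, macrophage, erythroid, cell cycle and tissue handling genes) and the tests were chosen with earlier results of these data known. From each pathway list the text names up to 3 of the largest called rises and falls, and all genes of a list of 3. The other genes with the promoter element and single genes of the marker lists were named after their values were seen. Libraries of an age are pools of different mice, and the p-values measure the spread between pools. Alternatives were other pseudocounts, filters and scalings, a fit with no trend, the study's per-gene test, a floor at 10 reads, voom on recovered reads, a replicate block and each library left out.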

Additional observations from a re-analysis of the deposited data

How the results depend on the processing

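Each value was recomputed under 18 alternatives, of which TPM scaling was chosen after seeing the data. Of 180 recomputed log2 fold changes of the 10 genes, 166 kept their direction and side of the threshold, 4 gained a call, 2 lost one and 8 turned sign. The turns were of Pdia3 (0.0048 with median scaling, 0.0293 with quantile normalization), Canx (0.0128 with median scaling) and Xbp1 (0.1043 with median scaling, 0.0216 with quantile normalization, 0.0275 without PND2 replicate 2, 0.0109 without 4-month replicate 1 and 0.0042 with TPM scaling, with -0.0736 without PND2 replicate 1 as its lowest), all of them genes near 0.

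Of the 10 genes, 2 were called higher with median scaling and 2 with quantile normalization. The per-gene unequal-variance test, the kind the study used, was run here on the filtered log2(RPKM + 0.1) values, without the study's own filter and floor. It called 0 of the 10 higher and 0 lower, with 1466 of all genes (5.66%) higher and 1942 (7.5%) lower (of the 10, 1 higher and 1 lower at an unadjusted p under 0.05 in the same test, and 1 and 1 called by voom). In that test the calls were 3 higher and 2 lower among folding partners, 0 and 1 among sensors, 4 and 1 among stress response genes, 0 higher in degradation and 2 lower in transport. TPM scaling called 1 sensor higher, and a fit with no trend called 1 degradation gene higher. Leaving out 1 library at a time gave 1 to 2 of the 10 genes higher and 1 to 2 lower. It gave 4 to 5 folding partners higher and 7 (without PND2 replicate 3) to 15 lower, 1 to 2 sensors higher and 1 to 3 lower, 1 to 2 degradation genes higher, and 0 to 1 of the other CREB3 genes lower, the 1 without 4-month replicate 1. Shares over all genes in the fits without 1 library are not given, so a change in a list cannot be told from a change in all calls. The cause of these differences was not tested.

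Replicate numbers are shared by the ages, but same-numbered libraries deviated from their age means with correlations of 0.04, -0.06 and -0.16, so the numbers do not pair the libraries. With a replicate block 3 folding partners, 1 sensor and 1 degradation gene were called higher, and all genes gave 3004 higher and 4163 lower against 3810 and 5463. No library correlated best with its own number.

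Depth limits none of the 10 genes, each with at least 876 reads in every library. Pools of mice, 3 an age, limit the precision, and age and the change in cell make-up cannot be told apart.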
